A study of Mus musculus with 3 samples.

Results

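The Kruppel-like factors are transcription factors that share a C-terminal run of C2H2 zinc fingers and bind GC-rich and CACCC sequences. Here 10 members with expression in blood cells (Klf2, Klf3, Klf4, Klf5, Klf6, Klf7, Klf9, Klf10, Klf13 and Klf16) were taken by gene symbol from 24421 genes measured in granulocyte progenitors, the bone marrow precursors that give rise to neutrophils. All 10 were found in every library. The cells were sorted by flow cytometry from the bone marrow of female mice and sequenced as 3 libraries, 1 per group. The IRF8-deficient library came from C57BL/6 mice (H-2b) that lack functional IRF8, a transcription factor that favours monocyte and dendritic cell fate over neutrophil production. The 4T1-TB library came from F1 semi-syngeneic mice (H-2b/d) bearing an orthotopic implant of 4T1 mammary tumor cells. The NTB library came from F1 mice of the same kind without a tumor. Strain and genotype therefore changed together in each comparison with the IRF8-deficient library and cannot be told apart. The label of the IRF8-deficient library names no tumor, so against 4T1-TB the tumor changed together with strain and genotype. The sources used here give neither the age of the mice, nor the number pooled in a library, nor the kind of Irf8 allele.

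Kruppel-like factors differ mainly outside the zinc fingers, in the partners they bring to DNA. KLF2, KLF4, KLF5, KLF6 and KLF7 belong to the group that mostly activates transcription and binds acetyltransferases such as p300. KLF3 recruits the corepressor CtBP, and KLF9, KLF10, KLF13 and KLF16 recruit SIN3 and its histone deacetylases. In the myeloid lineage KLF4 is known for driving monocyte differentiation, and in mouse progenitors it has been described as acting downstream of IRF8. KLF2 is known for keeping monocytes and lymphocytes quiescent.

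Levels are in RPKM, read counts scaled to the length of the gene and the size of the library, so they can be compared between genes. With 1 library per group there was no spread between animals and no test, and each difference describes these libraries. Bracketed ranges are 95% intervals for counting error only, exact Poisson for a level and exact binomial (Clopper-Pearson) for a ratio, made from reads recovered from the deposited values. Those reads summed to 36634054 in IRF8-deficient, 23972683 in 4T1-TB and 43392654 in NTB, and the 10 genes held between 92 and 5862 reads each per library. In total RNA from a sorted population, fewer cells that express a gene and less RNA per cell cannot be told apart. The ribosomal RNA precursor Rn45s took 13.5% of reads in IRF8-deficient, 6.17% in 4T1-TB and 1.75% in NTB. Irf8 itself had an RPKM of 13.7 in IRF8-deficient, 8.60 in 4T1-TB and 43.8 in NTB. Its transcript was thus lower in both libraries than in NTB but still present in IRF8-deficient. A gene total carries no information on single exons, so it does not check the allele. The 9 granulocyte progenitor markers measured summed to 10387 RPKM in IRF8-deficient, 20873 in 4T1-TB and 17498 in NTB, and none was at 0. Against NTB, IRF8-deficient had 1 called higher, Cebpe (255, 108 and 77.4 in IRF8-deficient, 4T1-TB and NTB), and 1 lower, the stem and progenitor antigen Cd34 (5.41, 8.73 and 36.9), and 4T1-TB had Cd34 alone, lower. Between IRF8-deficient and 4T1-TB 1 was higher, Cebpe, and 3 were lower, Prtn3, Ctsg and Ms4a3.

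**Figure D1:**
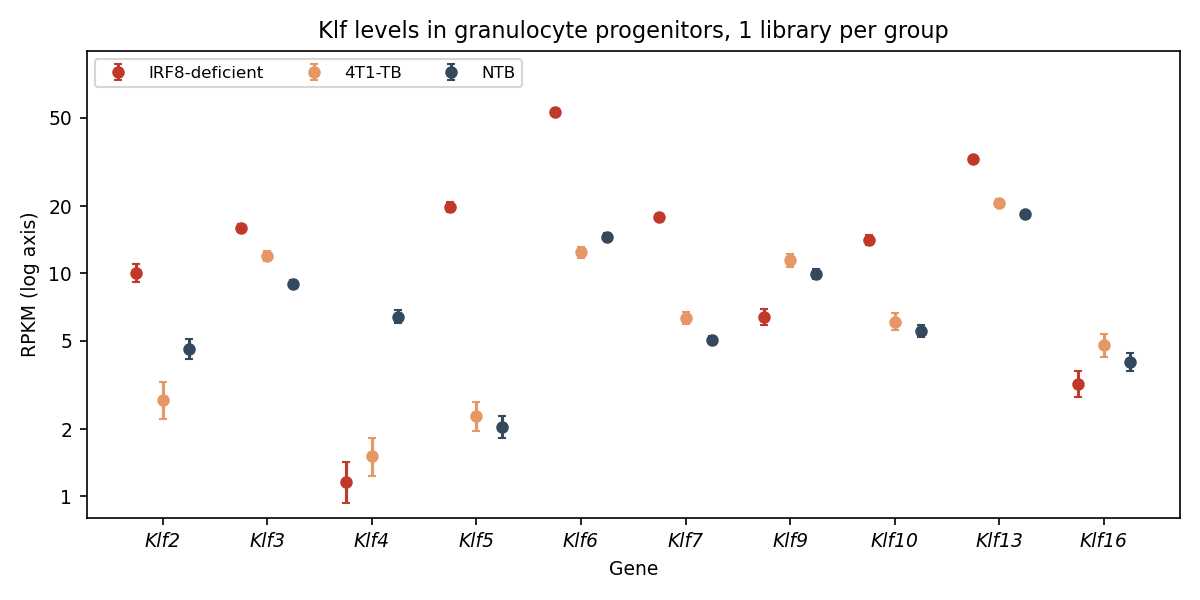
RPKM on a log axis for each of the 10 Klf genes, with 1 point per library (IRF8-deficient, 4T1-TB, NTB from left to right) and bars for the 95% Poisson counting interval. Klf6 had the highest point of all, 53.2 in IRF8-deficient, and Klf4 in IRF8-deficient and 4T1-TB gave the lowest ones, 1.16 and 1.51.

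Calls were made from a difference of 1 upwards in either direction on log2(RPKM + 1), a scale that understates the differences of low genes. In IRF8-deficient against NTB, 4 of the 10 were called higher (Klf5, Klf6, Klf7 and Klf10) and 1 lower (Klf4). The comparison covered 10658 genes that reached an RPKM of 1 in any library, and 8.78% of them were called higher and 5.73% lower here. In 4T1-TB against NTB, 0 of the 10 were called higher and 1 lower, again Klf4, where the shares over all genes were 1.67% and 1.35%. In IRF8-deficient against 4T1-TB, 5 were called higher (Klf2, Klf5, Klf6, Klf7 and Klf10) and 0 lower, where the shares over all genes were 8.83% and 7.07%. The median difference of the 10 genes was 0.89 in IRF8-deficient against NTB, 0.14 in 4T1-TB against NTB and 0.87 in IRF8-deficient against 4T1-TB, and that of all genes was −0.02, 0.01 and −0.00. At a difference of 2, Klf5 alone was called higher in IRF8-deficient against NTB and none lower, where the shares over all genes were 1.90% and 0.385%. At that size 0 of the 10 were called in 4T1-TB against NTB (0.441% of all genes higher, 0.0469% lower). In IRF8-deficient against 4T1-TB, Klf5 and Klf6 were higher and none lower (1.67% and 0.469% of all genes). These comparisons share libraries in pairs and are not independent of each other.

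**Figure D2:**
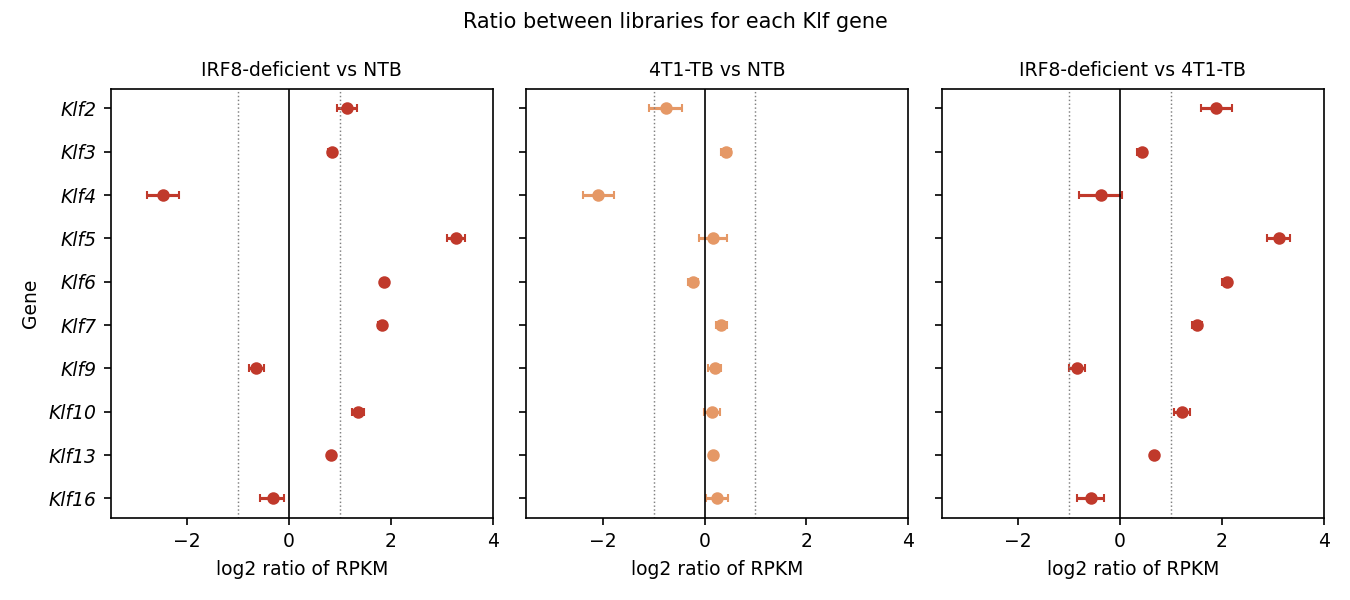
The log2 ratio of RPKM between libraries for each gene, with no pseudocount, in 1 panel per comparison, with bars for the 95% binomial counting interval and dotted lines at a 2-fold ratio. Klf2, Klf5, Klf6, Klf7 and Klf10 lie right of the upper dotted line in both panels that hold IRF8-deficient, and Klf4 lies left of the lower one in both panels that set a library against NTB. The ratio of Klf2 between IRF8-deficient and NTB is past 2-fold here because no pseudocount is added.

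The activators come first. Klf4, a zinc finger factor of monocytes and of pluripotent cells, lies on the minus strand of chromosome 4 from 55527143 to 55532466 (mm10). It had an RPKM of 1.16 in IRF8-deficient (0.933 to 1.42), 1.51 in 4T1-TB (1.23 to 1.83) and 6.40 in NTB (5.99 to 6.84). The IRF8-deficient and 4T1-TB libraries were both low, with overlapping intervals, and NTB was high. Klf4 was 5.53-fold lower in IRF8-deficient than in NTB (4.46 to 6.93) and 4.24-fold lower in 4T1-TB than in NTB (3.45 to 5.26). Between IRF8-deficient and 4T1-TB the ratio was 0.767 (0.572 to 1.03), an interval that includes 1. It was the least abundant of the 10 genes in IRF8-deficient and in 4T1-TB and the fifth most abundant in NTB. With a pseudocount of 5 the Klf4 differences were −0.89 and −0.81, short of a call.

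Klf2, the factor of leukocyte quiescence, lies on the plus strand of chromosome 8 from 72319033 to 72321656. Its RPKM was 10.04 in IRF8-deficient (9.16 to 11.0), 2.70 in 4T1-TB (2.22 to 3.26) and 4.59 in NTB (4.13 to 5.08). All 3 intervals were separate, with IRF8-deficient high, NTB in the middle and 4T1-TB low. IRF8-deficient was 3.71-fold above 4T1-TB (3.01 to 4.62), the ratio to NTB was 2.19 (1.91 to 2.51), and 4T1-TB was 1.70-fold below NTB (1.37 to 2.12). On the log2(RPKM + 1) scale the difference of IRF8-deficient from NTB was 0.98, just short of the call, and over 6 alternatives it ran from 0.51 with summed recovered reads to 1.11 with a pseudocount of 0.1, past the call in that one and in median ratio scaling (1.03). Set against the median of all genes, it was 1.01 as deposited and 1.00 with summed reads. With a pseudocount of 5 the difference of IRF8-deficient from 4T1-TB was 0.97, which also falls short.

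Klf5, a factor best known from gut epithelium and smooth muscle and also described in granulocyte differentiation, lies on the plus strand of chromosome 14 from 99298691 to 99315036. It reached 19.9 RPKM in IRF8-deficient (19.0 to 20.8), against 2.30 in 4T1-TB (1.97 to 2.66) and 2.04 in NTB (1.83 to 2.28). Only the IRF8-deficient library was high, and the intervals of 4T1-TB and NTB overlapped. The IRF8-deficient level was 9.73-fold that of NTB (8.63 to 11.0) and 8.66-fold that of 4T1-TB (7.41 to 10.2). Klf5 was the least abundant of the 10 genes in NTB and the third most abundant in IRF8-deficient.

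Klf6, an injury and stress response factor that also acts in macrophages, lies on the plus strand of chromosome 13 from 5861482 to 5870394. It had 53.2 RPKM in IRF8-deficient (51.9 to 54.6), 12.5 in 4T1-TB (11.7 to 13.2) and 14.6 in NTB (14.1 to 15.2). Again IRF8-deficient alone was high, 3.64-fold above NTB (3.48 to 3.81) and 4.28-fold above 4T1-TB (4.01 to 4.56), while 4T1-TB was slightly under NTB. Klf7, a relative of Klf6 first studied in neurons, lies on the minus strand of chromosome 1 from 64029447 to 64122282. Its RPKM was 17.9 in IRF8-deficient (17.3 to 18.4), 6.30 in 4T1-TB (5.94 to 6.68) and 5.03 in NTB (4.80 to 5.27). The IRF8-deficient library was 3.55-fold above NTB (3.36 to 3.76) and 2.83-fold above 4T1-TB (2.65 to 3.03). Exons annotated for Klf7 overlap those of a long noncoding RNA gene on the opposite strand, Gm26649, over 3196 bases, and without stated strandedness their reads cannot be told apart.

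The stretches at the start of Klf2, Klf4 and Klf6 are shown because these genes gave the different orders of the libraries described above. Each is the 250 bases before the start of the RefSeq gene on GRCm38.p6, written 5′ to 3′ on the strand of the gene. Capitals mark CACCC and GGGCGG, the boxes that Kruppel-like and Sp factors bind, on both strands, and a MEF2-type core (CTA, 4 bases of any kind, then TAG). The Klf2 window is chr8:72318812-72319061 (plus strand), the Klf4 window chr4:55532476-55532725 (minus strand) and the Klf6 window chr13:5861239-5861488 (plus strand).
Klf2: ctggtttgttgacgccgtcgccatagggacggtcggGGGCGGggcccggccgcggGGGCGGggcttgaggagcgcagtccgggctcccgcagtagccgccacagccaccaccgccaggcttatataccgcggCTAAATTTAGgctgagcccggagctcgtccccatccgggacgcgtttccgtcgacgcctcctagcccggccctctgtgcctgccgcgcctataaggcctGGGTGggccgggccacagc
Klf4: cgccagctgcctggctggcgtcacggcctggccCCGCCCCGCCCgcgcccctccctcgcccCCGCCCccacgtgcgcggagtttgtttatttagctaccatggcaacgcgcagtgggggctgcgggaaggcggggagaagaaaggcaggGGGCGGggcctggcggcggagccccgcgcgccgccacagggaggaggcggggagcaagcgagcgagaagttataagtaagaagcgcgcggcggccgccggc
Klf6: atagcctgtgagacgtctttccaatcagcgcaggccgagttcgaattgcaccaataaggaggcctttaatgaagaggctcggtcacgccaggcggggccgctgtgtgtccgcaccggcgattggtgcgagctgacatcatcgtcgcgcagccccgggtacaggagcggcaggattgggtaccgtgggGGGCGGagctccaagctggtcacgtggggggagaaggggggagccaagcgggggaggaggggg
The RefSeq starts lie inside the GENCODE genes for Klf2 and Klf6, so the last 29 bases of the Klf2 window and the last 7 of the Klf6 window fall within the gene coordinates given above. The Klf2 window held 2 matches of GGGCGG, 1 of CACCC, which lies in those last 29 bases, and 1 of the MEF2-type core. The Klf4 window held 4 matches of GGGCGG, of which the first and second overlap by a base, and 0 of CACCC or the MEF2-type core. The Klf6 window held 1 match of GGGCGG, 0 of CACCC and 4 of CCAAT. Among 32851 windows of the same length over all genes, GGGCGG was found in 32.7%, CACCC in 52%, CCAAT in 33.8% and the MEF2-type core in 3.2%, on either strand. Windows were on hand for 7 of the 10 genes, all but Klf5, Klf10 and Klf16. That of Klf3 lay in part (133 bases) and that of Klf7 wholly within the GENCODE gene. Their GC content ran from 59.2% to 78.4%, against a median of 52.4% over all windows. The composite element of PU.1 and IRF proteins (GGAA, 2 bases, GAAA) and the interferon response core (GAAA, 2 bases, GAAA) had 0 matches in the 7 windows, and were found in 2.3% and 2.98% of all windows. A match of letters is a description and shows no binding.

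Klf3, which recruits CtBP and acts as a repressor in several blood lineages, lies on the plus strand of chromosome 5 from 64803388 to 64832901. It stood at 16.1 RPKM in IRF8-deficient (15.4 to 16.7), 11.9 in 4T1-TB (11.4 to 12.6) and 8.93 in NTB (8.57 to 9.31). All 3 intervals were separate, with IRF8-deficient and 4T1-TB both above NTB, at 1.80-fold (1.70 to 1.90) and 1.34-fold (1.25 to 1.43). No Klf3 difference reached the call. Its exons share 404 bases with Gm20033 on the opposite strand, so the caution given for Klf7 applies here too.

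The SIN3 group split. Klf10, also known as an early gene induced by transforming growth factor beta, lies on the minus strand of chromosome 15 from 38291463 to 38300706. It had 14.1 RPKM in IRF8-deficient (13.4 to 14.9), 6.09 in 4T1-TB (5.57 to 6.64) and 5.53 in NTB (5.19 to 5.90). IRF8-deficient was 2.55-fold above NTB (2.35 to 2.78) and 2.32-fold above 4T1-TB (2.10 to 2.57), and the intervals of 4T1-TB and NTB overlapped. The Klf10 call depended on scaling. With libraries scaled by summed recovered reads the difference of IRF8-deficient from NTB was 0.72 in place of 1.21, while the median of all genes moved to −0.50, and with a pseudocount of 5 it was 0.86. The difference of IRF8-deficient from 4T1-TB, 1.09, was 0.74, 0.85 and 0.79 with summed reads, summed reads without Rn45s and a pseudocount of 5, also short of a call. Set against the median of all genes, the difference from NTB was 1.22 with summed reads and 1.24 as deposited.

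Klf13, a factor described in T cell chemokine expression, lies on the minus strand of chromosome 7 from 63886351 to 63938915. Its RPKM was 32.8 in IRF8-deficient (31.97 to 33.7), 20.7 in 4T1-TB (19.98 to 21.5) and 18.5 in NTB (18.0 to 19.0), which made it the most abundant of the 10 genes in 4T1-TB and NTB and second to Klf6 in IRF8-deficient. IRF8-deficient was 1.78-fold above NTB (1.71 to 1.85), short of the call. Klf9, a hormone and stress responsive repressor on the plus strand of chromosome 19 from 23141226 to 23168134, went the other way. It had 6.37 RPKM in IRF8-deficient (5.85 to 6.93), 11.4 in 4T1-TB (10.7 to 12.2) and 9.97 in NTB (9.46 to 10.5). The IRF8-deficient library was the low one, at 0.639 of NTB (0.578 to 0.706) and 0.557 of 4T1-TB (0.499 to 0.621). Scaled by summed recovered reads, the Klf9 differences of −0.57 and −0.75 became −1.03 and −1.07 and passed the call, a move shared with the median of all genes. Set against that median they were −0.53 and −0.74 with summed reads, and −0.55 and −0.75 as deposited. Klf16, on the minus strand of chromosome 10 from 80567124 to 80577321, stood at 3.19 RPKM in IRF8-deficient (2.78 to 3.64), 4.75 in 4T1-TB (4.21 to 5.34) and 4.00 in NTB (3.65 to 4.38). The intervals of 4T1-TB and NTB overlapped, that of IRF8-deficient lay just under that of NTB, and no difference reached the call.

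**Figure D3:**
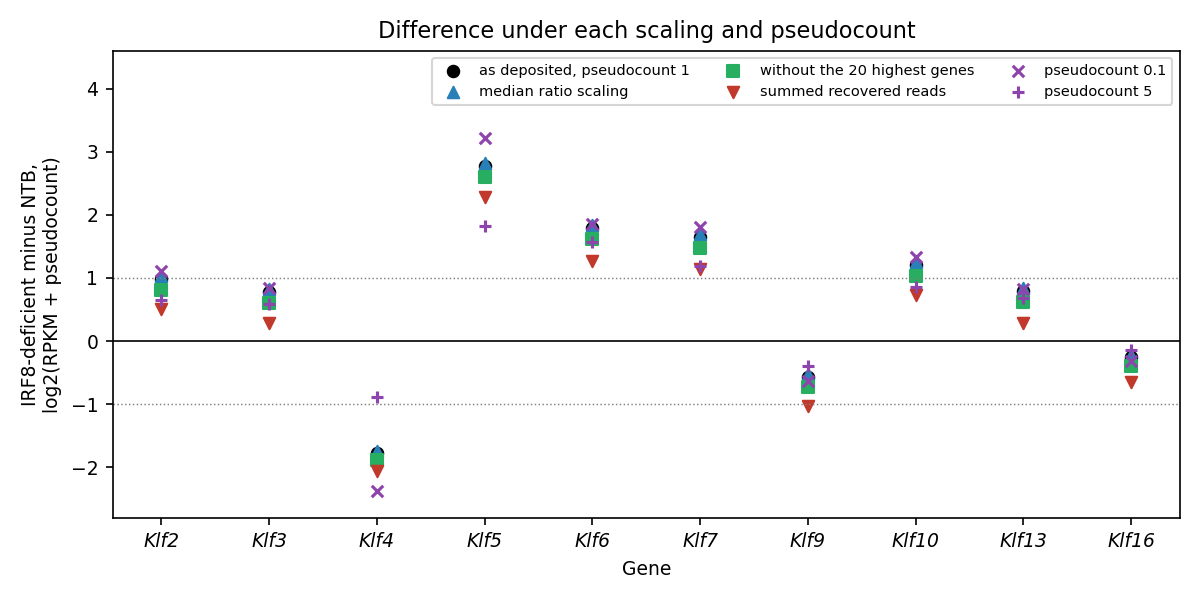
Difference of IRF8-deficient from NTB for each gene on log2(RPKM + pseudocount), under the deposited scaling with a pseudocount of 1 and under 5 alternatives, with dotted lines at the call of 1. Klf5, Klf6 and Klf7 stay above 1 under every setting drawn, while Klf2, Klf4, Klf9 and Klf10 cross a dotted line under some.

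Shares of the family do not depend on how libraries are scaled. The summed RPKM of the 10 genes, which does depend on scaling, was 175 in IRF8-deficient, 80.2 in 4T1-TB and 79.6 in NTB as deposited. Klf6 made up 30.5% of that sum in IRF8-deficient, 15.5% in 4T1-TB and 18.4% in NTB. Klf4 made up 0.662%, 1.88% and 8.04%, and Klf5 11.4%, 2.86% and 2.57%, in the same libraries. The 5 activators together took 58.5% in IRF8-deficient, 31.5% in 4T1-TB and 41.1% in NTB. The 4 SIN3-binding members took 32.3%, 53.6% and 47.7%. Ratios of genes within a library are free of scaling too. The ratio of Klf5 to Klf4 was 17.2 in IRF8-deficient (13.9 to 21.4), 1.52 in 4T1-TB (1.19 to 1.96) and 0.319 in NTB (0.280 to 0.364). The ratio of Klf6 to Klf9 was 8.35 in IRF8-deficient (7.65 to 9.14), 1.09 in 4T1-TB (0.995 to 1.19) and 1.47 in NTB (1.38 to 1.57). For Klf2 to Klf4 it was 8.67 in IRF8-deficient (6.92 to 11.0), 1.79 in 4T1-TB (1.35 to 2.37) and 0.716 in NTB (0.633 to 0.809).

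**Figure D4:**
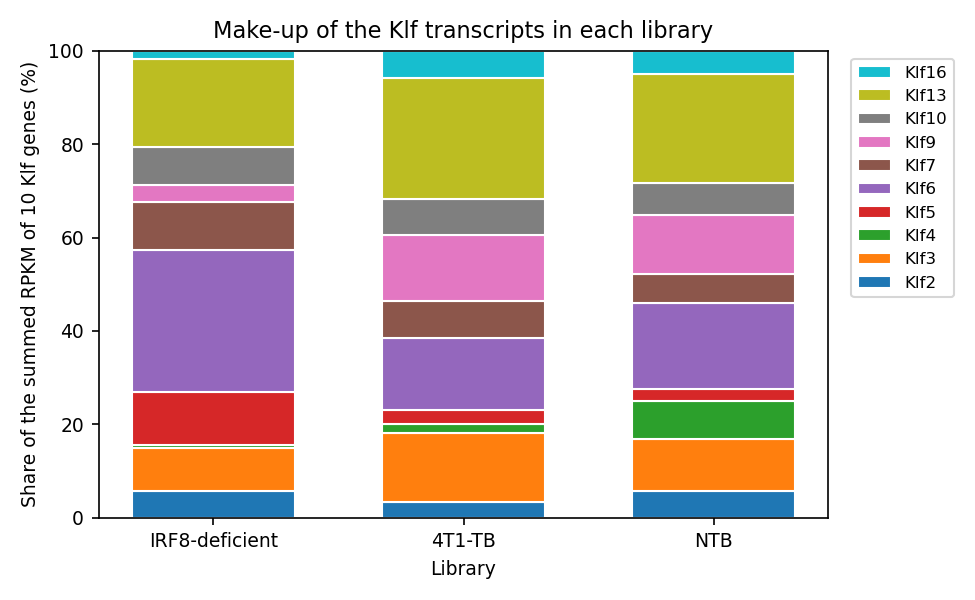
Share of the summed RPKM of the 10 Klf genes taken by each gene, in percent, as a stacked bar per library. The Klf6 and Klf5 segments are tallest in IRF8-deficient (30.5% and 11.4%), and the Klf4 segment is tallest in NTB (8.04%).

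In order of level, neighbours were separated by their counting intervals throughout IRF8-deficient. In 4T1-TB the intervals overlapped between Klf6, Klf3 and Klf9, between Klf7 and Klf10, and between Klf2 and Klf5. In NTB they overlapped along the run of Klf10, Klf7, Klf2 and Klf16 from each to the next.

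Of 7 other Klf symbols, Klf14, Klf15 and Klf17 were listed at 0 in every library. Klf11, a SIN3-binding relative of Klf10, had 5.65 RPKM in IRF8-deficient, 3.80 in 4T1-TB and 5.06 in NTB, within the range of the 10 genes described above. Klf8, a CtBP-binding gene that KLF3 represses in mouse erythroid cells, had 0.619, 0.859 and 1.68, and neither it nor Klf11 was called. Klf1, the erythroid member, stood at 0.0749 in IRF8-deficient, 0 in 4T1-TB and 0.364 in NTB. The Sp factors are the nearest relatives of the family and bind the same GC boxes. Of 4 that were compared, Sp3 was called higher in IRF8-deficient, at 115 RPKM against 41.5 in 4T1-TB and 48.1 in NTB. Sp1 stood at 44.2, 28.9 and 34.0, Sp2 at 8.05, 5.68 and 5.47, and Sp4 at 5.65, 2.97 and 3.41, with no call.

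Among 12 cofactors and ubiquitin ligases of the family, which include the CtBP, SIN3 and p300 genes, 0 were called in any of the 3 comparisons. Their median difference was 0.45 in IRF8-deficient against NTB and −0.04 in 4T1-TB against NTB. Among 16 genes compared that act upstream of Klf genes, 2 were called higher and 1 lower in IRF8-deficient against NTB, and Irf8 was the one that was lower. Mapk7, which encodes ERK5, the kinase upstream of Klf2 and Klf4 in endothelium, had 17.5 RPKM in IRF8-deficient, 3.47 in 4T1-TB and 3.73 in NTB. Mef2a, one of the MEF2 factors that ERK5 activates, had 14.6, 5.99 and 5.51 in the same libraries. Its relatives Mef2c (4.36, 5.51 and 9.34) and Mef2d (7.88, 10.2 and 16.7) went the other way. Their differences of −0.95 and −0.99 in IRF8-deficient against NTB fell just short of the call. In 4T1-TB against NTB 0 of the 16 were called higher and Irf8 was again the one called lower. In IRF8-deficient against 4T1-TB 2 were called higher, again Mapk7 and Mef2a, and 0 lower. Over all genes, the shares called higher and lower were 8.78% and 5.73% in IRF8-deficient against NTB. They were 1.67% and 1.35% in 4T1-TB against NTB, and 8.83% and 7.07% in IRF8-deficient against 4T1-TB. The counts of these lists were not tested against those shares.

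The comparison held 10 genes that have been described as targets of Kruppel-like factors in various cells. In IRF8-deficient against NTB 2 were called higher and 3 lower, where the shares over all genes were 8.78% and 5.73%. Lgals3, the galectin-3 gene, which KLF3 represses in mouse cells, had 89.6 RPKM in IRF8-deficient, 11.2 in 4T1-TB and 7.61 in NTB. The cell cycle inhibitor gene Cdkn1a had 2.63, 0.511 and 0.529. Lower were Thbd, the thrombomodulin gene (1.17, 2.75 and 6.30), the TGF-beta coreceptor gene Eng (0.836, 1.30 and 3.89) and the endotoxin coreceptor gene Cd14 (1.48, 4.61 and 4.68). In 4T1-TB against NTB, 0 were called higher and 1 lower, Eng (1.67% and 1.35% of all genes). In IRF8-deficient against 4T1-TB, 3 were called higher and 1 lower (8.83% and 7.07% of all genes). Lgals3 and Cdkn1a were again higher and Cd14 again lower. Itgb7, an integrin gene, was called higher in that comparison alone (4.77 against 1.45, with 3.19 in NTB). The median difference of these 10 genes was 0.38 in IRF8-deficient against NTB and −0.02 in 4T1-TB against NTB.

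Several gene lists also differed between the libraries, and their part in the Klf differences was not tested. Over all genes, 8.78% were called higher and 5.73% lower in IRF8-deficient against NTB, and 1.67% and 1.35% in 4T1-TB against NTB. Of 10 mature neutrophil markers, 10 were called higher in IRF8-deficient and 9 in 4T1-TB against NTB, and their summed RPKM was 1419 in IRF8-deficient, 394 in 4T1-TB and 39.2 in NTB. Secondary granule markers summed to 45888 in IRF8-deficient, 1233 in 4T1-TB and 1541 in NTB. The mature neutrophil sum was thus graded, with 4T1-TB between the others, while the secondary granule sum was high in IRF8-deficient alone. Of 6 secondary granule markers, 6 were called higher in IRF8-deficient against NTB. In 4T1-TB against NTB 2 of them were called higher and 0 lower. Monocyte and macrophage markers summed to 259, 136 and 263, and of 8 compared, 2 were called lower and 1 higher in IRF8-deficient against NTB, and 4 lower in 4T1-TB. Of the 10 monocyte and macrophage markers listed, Ms4a7 alone was at 0, in every library, and the others were above 0 in each. Several Klf genes are also induced by stress and by cell handling. Of 15 immediate early and dissociation genes compared, 3 were higher and 6 lower in IRF8-deficient against NTB. In 4T1-TB against NTB 0 were higher and 5 lower. In IRF8-deficient against 4T1-TB 4 were higher and 2 lower, where the shares over all genes were 8.83% and 7.07%. Fosb stood at 1.24 RPKM in IRF8-deficient, 0.239 in 4T1-TB and 11.4 in NTB, Fos at 18.5, 13.2 and 42.5, and Jun at 12.6, 12.3 and 39.0. The heat shock genes Hspa1a (9.68, 35.0 and 123) and Hspa1b (10.7, 37.4 and 137) are near-identical copies, and they were lowest in IRF8-deficient and highest in NTB. Nr4a1, another immediate early gene, went the other way at 3.12, 0.145 and 0.225. Zfp36 (47.3, 19.7 and 22.6) and Btg2 (28.1, 9.79 and 13.4) were also called higher in IRF8-deficient against NTB.

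Klf2 is known for high levels in lymphocytes and endothelium, and the part of such cells in its values was not tested. The 9 T and NK cell markers summed to 0.763 RPKM in IRF8-deficient, 0.696 in 4T1-TB and 0.767 in NTB, with Cd3e listed at 0 throughout. The 7 endothelial and stromal markers summed to 0.377, 0.156 and 0.353. The 6 B cell markers summed to 11.5, 12.6 and 16.7, nearly all of it Cd79b (10.3, 12.3 and 16.4), while the defining gene Ms4a1 stayed under 0.1 in every library. The 9 erythroid markers summed to 0.126, 0.168 and 1.56, and the 4 globin genes among them were listed at 0.

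**Figure D5:**
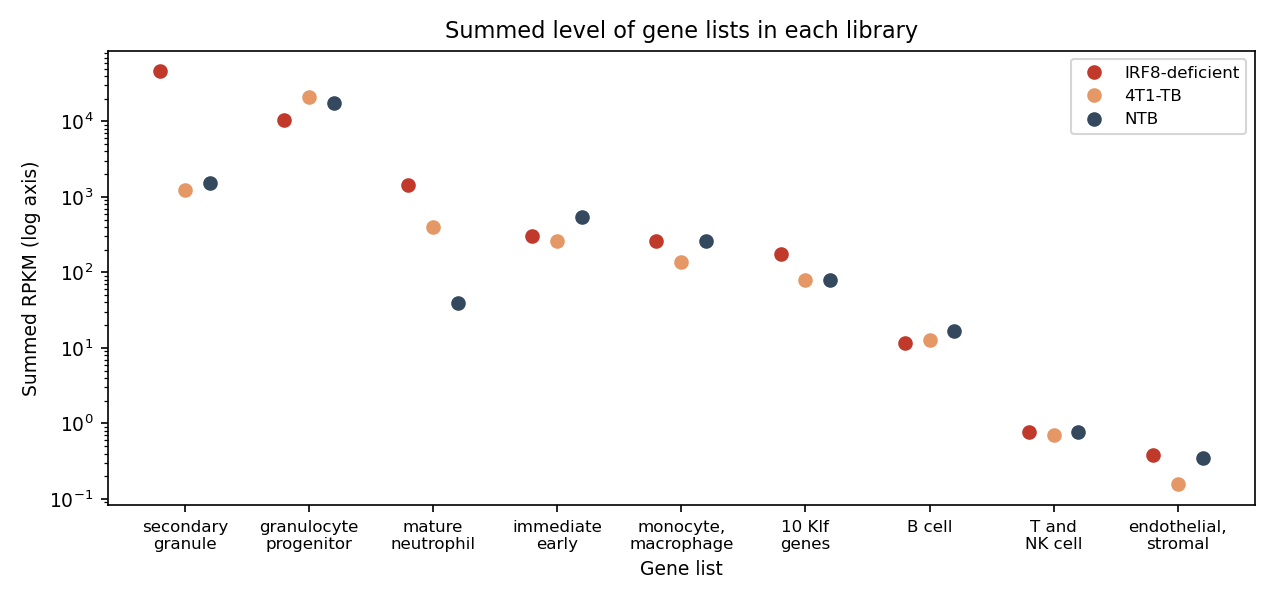
Summed RPKM of gene lists on a log axis, with 1 point per library (IRF8-deficient, 4T1-TB, NTB from left to right). The 10 Klf genes sum to 175, 80.2 and 79.6, the mature neutrophil markers to 1419, 394 and 39.2, and the T and NK cell and endothelial lists lie under 1 in every library.

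Genes with the most similar pattern were sought for each member called in a comparison with NTB. Klf2, called only in IRF8-deficient against 4T1-TB, was therefore not included. The search covered 8077 genes that reached an RPKM of 5, with predicted genes, histones, ribosomal proteins and small RNAs left out. Patterns were compared by Euclidean distance between centred log2(RPKM + 1) values over the 3 libraries. With so few libraries many genes lie close, so this is a description. Nearest to Klf4 were Serpinf1 (distance 0.085), Ly6c1 (0.12) and BC064078 (0.18). Ly6c1, a surface antigen gene, had 28.1 RPKM in IRF8-deficient, 29.4 in 4T1-TB and 97.9 in NTB. Nearest to Klf5 were Itgam, the CD11b integrin gene (distance 0.052, with 361, 53.9 and 52.2 RPKM in the same libraries), Adpgk (0.081) and Gsn (0.10). Nearest to Klf6 were Inpp4a (0.025), Stk10 (0.049) and Treml4 (0.050). Klf7 lay closest to Rell1 (0.0090), the proton channel gene Hvcn1 (0.022) and Ly75 (0.031), and Klf10 to Arid3b (0.0031), Btbd10 (0.014) and Prkd2 (0.018).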

How the data were processed

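RNA from granulocyte progenitors was measured in 3 libraries, 1 for each of IRF8-deficient, 4T1-TB and NTB mice, grouped by the mouse model in their labels. The deposited values are RPKM, made by the authors for 24421 symbols. Tools in the submitters' processing notes were TopHat2 2.0.13, HTSeq 0.6.1, edgeR 3.12.1, cutadapt 1.2.1, CASAVA 1.8.2 and Picard 1.97, with the build mm10. Their roles are not stated. Nothing in the sources used here gives the annotation, the strandedness or the form of library size.

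RPKM were used as deposited. The 10658 genes that reached an RPKM of 1 in any library were compared on log2(RPKM + 1) and called at a difference of 1. Without replicates there was no test.

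Whole reads were recovered for 15158 genes above 0, because deposited RPKM stood in whole-number ratios and implied whole gene lengths for 91.1% of the 8016 genes used. Where reads and length shared a common factor, the multiple nearest to the RefSeq-paired exon length of GENCODE M21 was taken. This applied to Klf3 (factor 5), Klf5 (2) and Klf7 (6), so their interval widths are less sure and their ratios are unaffected. Implied library sizes were 0.713 times the recovered reads in IRF8-deficient, 0.926 in 4T1-TB and 1.03 in NTB. No source used here says why. For a gene of median length, an RPKM of 1 rested on 76.2, 64.8 and 131 reads. Intervals cover counting error only.

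Coordinates are from GENCODE M21 (mm10) and upstream sequences from RefSeq (GRCm38.p6). The members, lists and naming rule were chosen with earlier results of these data known. That rule names all 10 members, up to 6 called genes of each list, the other Klf and Sp genes with an RPKM of at least 1, and the 3 genes nearest in pattern. Klf1, Klf14, Klf15, Klf17, Mef2c, Mef2d, Zfp36, Btg2, Rn45s, Cebpe, Cd34, Prtn3, Ctsg, Ms4a3 and the marker genes given with values were added by choice. Dendritic cell markers summed to 19.96, 24.2 and 22.6 RPKM in IRF8-deficient, 4T1-TB and NTB, megakaryocyte and platelet markers to 3.54, 1.26 and 1.60, and basophil, mast cell and eosinophil markers to 11.4, 23.5 and 22.3. Read recovery and calling were run on simulated reads with known changes. There the known scaling between libraries was removed before calling, which was not done for the calls given here. The simulation therefore does not check how scaling affects those calls. Software was Python 3.11.15 with scipy 1.17.1, pandas 2.3.3, numpy 2.4.6 and matplotlib 3.10.9.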

Additional observations from a re-analysis of the deposited data

How the results depend on the processing

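Among 180 values under 6 alternatives of scaling and pseudocount, 76 moved further than their counting interval reaches to either side on the log2 scale. Of 30 differences (10 genes in 3 comparisons), 29 kept their direction under all 6 alternatives. The exception was Klf10 in 4T1-TB against NTB, at −0.02 with summed recovered reads and 0.12 as deposited. Scaling by summed recovered reads, with or without Rn45s, was added after the data were seen. With summed reads the median of all genes moved by −0.47 in IRF8-deficient against NTB, −0.14 in 4T1-TB against NTB and −0.32 in IRF8-deficient against 4T1-TB. Calls over all genes became 450 higher and 1835 lower in place of 936 and 611 for IRF8-deficient against NTB, 147 and 185 in place of 178 and 144 for 4T1-TB against NTB, and 492 and 1455 in place of 941 and 754 for IRF8-deficient against 4T1-TB. Rescaling without the 20 highest genes gave 708 and 894 for IRF8-deficient against NTB. For the same pair, summed reads without Rn45s gave 570 and 1250, and median ratio scaling 1007 and 547. A pseudocount of 0.1 gave 1145 and 1071 there, and a pseudocount of 5 gave 526 and 149. With a pseudocount of 5, 4T1-TB against NTB had 65 and 21, and IRF8-deficient against 4T1-TB 475 and 311. IRF8-deficient against 4T1-TB had 601 and 1192 with summed reads without Rn45s. Genes compared numbered 10573 to 10658 across these settings.

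In IRF8-deficient against NTB, members called higher were 3 with summed reads, with or without Rn45s, and with a pseudocount of 5, and 5 with median ratio scaling or a pseudocount of 0.1, in place of 4. Members called lower were 2 with summed reads and 0 with a pseudocount of 5, in place of 1. At a call of 4-fold there were 1 higher and 0 lower. In 4T1-TB against NTB, members called lower were 0 with a pseudocount of 5 and 0 at 4-fold, in place of 1. In IRF8-deficient against 4T1-TB, members called higher were 4 with summed reads, with or without Rn45s, 3 with a pseudocount of 5 and 2 at 4-fold, in place of 5, and 1 was lower with summed reads in place of 0. A larger pseudocount shrinks the differences of low genes by construction. No paired analysis was possible because each group holds 1 library, and for the same reason no replicate could be left out. Klf4 rested on 92 and 102 reads in IRF8-deficient and 4T1-TB, the least of any member.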
